A study of Mus musculus with 42 samples.

Results

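The genes described here are those of the Wnt pathway: the secreted Wnt ligands and the proteins that make and release them, their receptors, the R-spondin branch, the cytoplasmic components, the TCF/LEF transcription factors, genes that the pathway is known to switch on, and secreted antagonists. A list of 50 symbols was matched through the mouse annotation to the identifiers of the deposited values, and 48 of the 50 were found among the 14296 genes measured, with Wnt3a and Lgr5 not found. The RNA came from W9.5 mouse embryonic stem cells of the 129X1/SvJ strain, a single line with no treatment or genetic change given in the labels, that differentiated without direction into embryoid bodies after withdrawal of the cytokine LIF. A culture of replicate A and another of replicate B were collected every 6 h up to 120 h, which gave 42 libraries over 21 time points. The groups therefore differed in time of differentiation and in nothing else that the labels give, and every comparison is between a later and an earlier time point of this one line. Embryoid bodies hold several cell types, so fewer cells of a type and less RNA per cell cannot be told apart in these bulk samples.

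Wnt proteins are lipid-modified by the acyltransferase Porcn, carried to the cell surface by Wls, and bind Frizzled receptors together with the co-receptors Lrp5 and Lrp6. In the absence of a ligand, a complex of Axin, Apc and Gsk3b marks β-catenin, the product of Ctnnb1, for destruction. In its presence the Dishevelled proteins disable that complex, and β-catenin enters the nucleus, where it acts with TCF/LEF factors at their DNA sites. In the early mouse embryo, Wnt3 is required for the primitive streak to form, and in embryonic stem cells the pathway counters repression by Tcf7l1.

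Values are log2 CPM, a gene's reads scaled to the size of its library, so that a difference of 1 is a 2-fold change. Changes were tested with limma, with the standard error (SE) of the difference, Benjamini-Hochberg adjustment over all genes and a threshold of adjusted p = 0.0001. The counted reads per library ranged from 10120972 to 51652434 with a median of 29692082, and 3 reads corresponded to between 0.057 and 0.316 CPM. A gene without reads stood between -6.71 and -4.25 log2 CPM depending on the library, so that values below about -3 rest on few reads. The duplicates stood apart at 96 h, where 13.5% of all genes differed by over 2-fold between replicates A and B, against 1.79% to 5.51% at the other time points. Results that rest on the 96 h libraries are therefore given with those of the neighbouring time points. The stem cell markers (7 genes, among them Pou5f1, Nanog and Sox2) summed to 3850 and 4090 CPM at 0 h and to 1830 and 1760 CPM at 120 h in replicates A and B. The identity given by the labels was thus met by its markers at the start. At 120 h each of the 7 still had over 3 reads in both libraries, but 5 were called lower than at 0 h and 0 higher.

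Most of the Wnt pathway genes changed, and most of those that changed between the ends of the course were higher at its end. Over all time points 43 of the 48 passed the threshold in the F test, against 74.6% of all genes, and Lrp6, Apc, Dvl3, Tcf7l1 and Sfrp5 did not. At 120 h against 0 h, 27 were higher and 3 lower. These 30 are 62.5% of the 48, where 23.0% of all genes were called, 12.9% as higher and 10.1% as lower. The median difference over the 48 genes was 0.95 on the log2 scale and that over all genes was -0.02.

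The range between the lowest and the highest of the 21 time point means had a median of 3.37 log2 units over the 48 genes and of 1.5 over all genes. It was at least 4 units for 19 of the 48 and for 11.7% of all genes. The highest mean fell between 96 h and 120 h for 24 of the 48, where 25.5% of all genes had theirs. It fell between 0 h and 24 h for 9 of the 48 and for 39.2% of all genes.

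**Figure D1:**
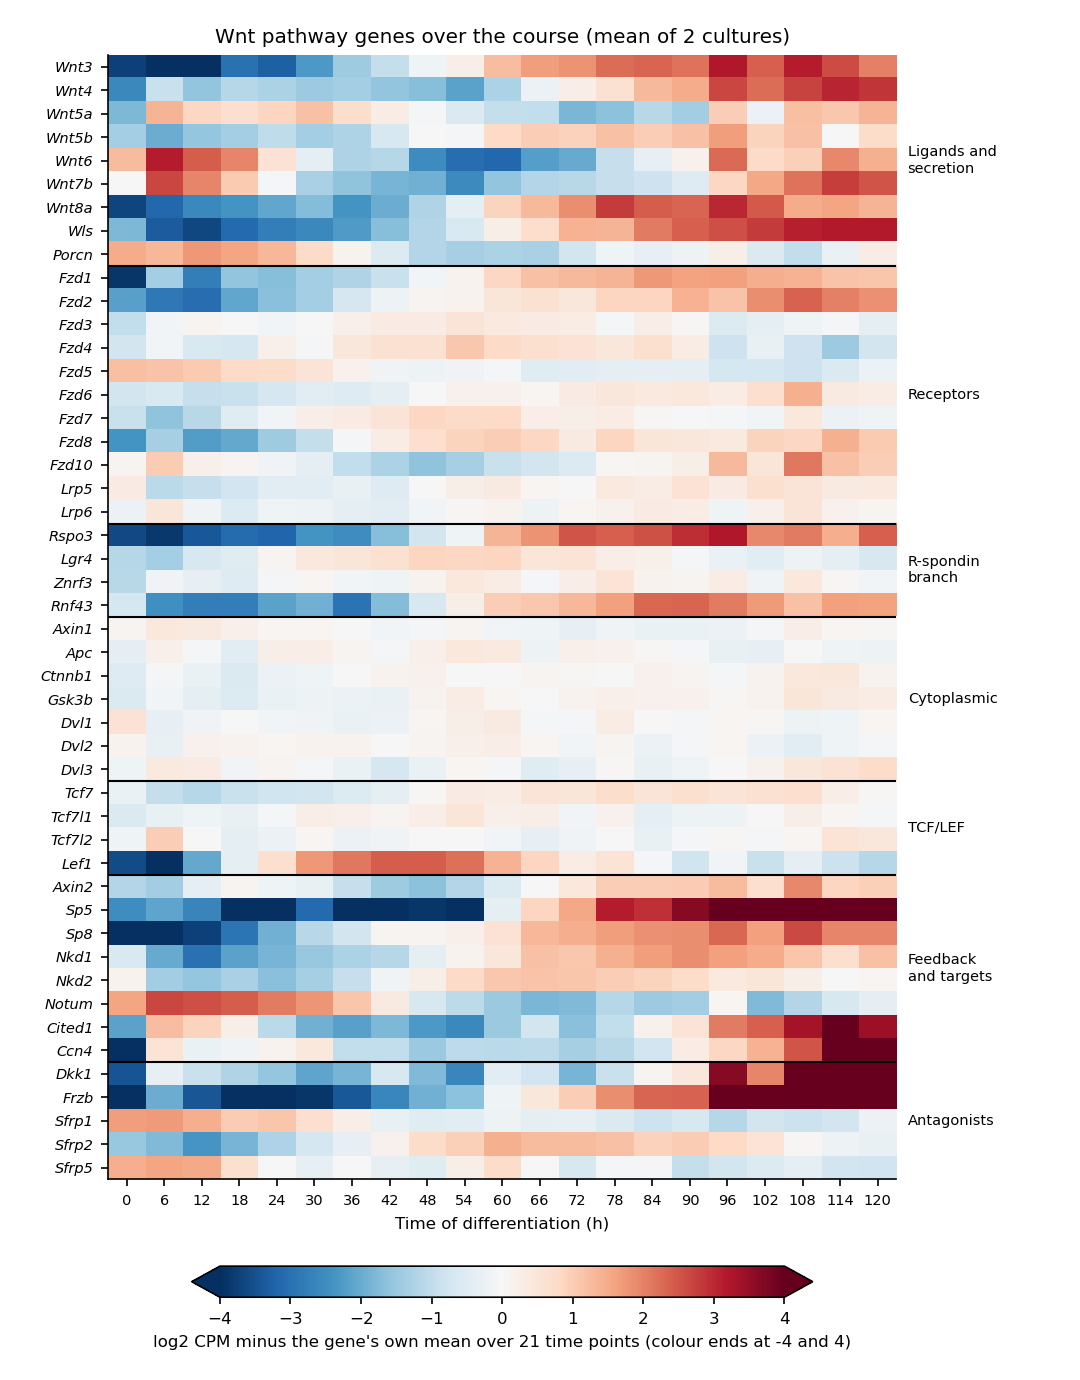
Mean log2 CPM of replicates A and B for the 48 Wnt pathway genes (rows, by role) at the 21 time points in h (columns), each minus the gene's own mean over the course, with colours that end at -4 and 4. Sp5, Frzb and Wnt3 rise from left to right, Sp5 and Frzb from 0 reads in both libraries of 24 h, Lef1 has its highest values around 48 h, and the rows of the cytoplasmic components stay near 0.

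The changes were spread unevenly over the course. Between 0 h and 6 h, 9 genes were higher and 8 lower, together 35.4% of the 48, against 26.3% of all genes. Between 6 h and 24 h, 5 were higher and 3 lower, 16.7% against 11.4% of all genes, of which 5.64% were higher. From 24 h to 48 h, 14 were higher and 6 lower, 41.7% against 8.97% of all genes, where 5.27% were higher and 3.70% lower. From 48 h to 72 h, 6 were higher and 2 lower, 16.7% against 9.38% of all genes, with 5.60% higher and 3.78% lower. From 72 h to 96 h, 8 were higher and 1 lower, 18.8% against 3.39%, with 2.39% higher. In the last day few of the genes passed. Between 96 h and 108 h the 2 genes called were 4.17% of the 48 against 6.99% of all genes, of which 3.13% were lower. Between 108 h and 120 h the 4 genes called were 8.33% against 4.12%, of which 1.73% were lower. Of the 48 genes, 14 passed in none of these 7 intervals, 15 in a single one, and Fzd7 in 5. Leaving out any one library of the time points compared gave fewer calls from 0 h to 6 h, from 24 h to 48 h and from 48 h to 72 h. The same held from 108 h to 120 h and for 120 h against 0 h. Ctnnb1, Gsk3b and Rnf43 at 120 h against 0 h each missed the threshold in all of these fits. With voom precision weights 73 of the 98 calls of the 7 intervals and the whole course held, and those lost included Wnt3 at 6 h, 24 h and 48 h, Wnt5a at 6 h, Axin2 at 48 h, Sp5 at 72 h and Dkk1 at 96 h.

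**Figure D2:**
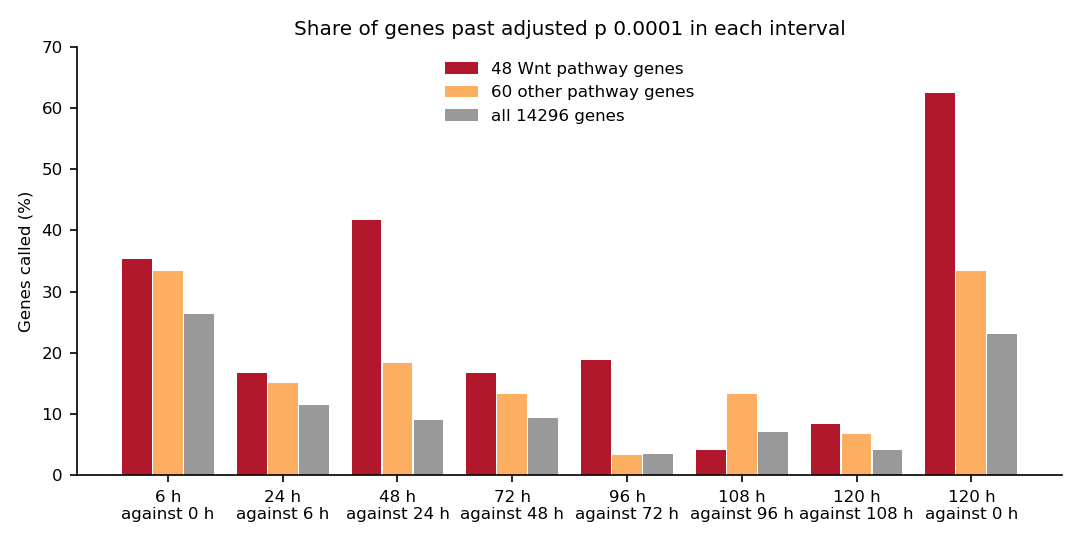
Share of genes past the threshold (vertical axis, in percent) in each of the 7 intervals and over the whole course, for the 48 Wnt pathway genes, 60 other genes of the pathway and all 14296 genes. For the 48 genes the bars are highest at 48 h against 24 h, 41.7%, and at 120 h against 0 h, 62.5%, where the bars of all genes stand at 8.97% and 23.0%.

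Among the ligands, Wnt3, Wnt4 and Wnt8a rose over the course by the most, and each followed its own timetable. Wnt3 (chromosome 11, 103774150 to 103817957, GRCm38), the ligand of the early streak, was at -2.10 and -1.5 log2 CPM in replicates A and B at 0 h and at -3.46 and -5.10 at 6 h. It then stood at -1.03 and -1.58 at 24 h, 1.85 and 1.70 at 48 h, 4.04 and 3.42 at 72 h, and 4.01 and 3.93 at 120 h. Both libraries of each of these later time points lay above those of the one before up to 72 h. The first step was a fall, from 5 and 8 reads to 2 and 0 reads, a ratio of 6.09 with a 95% counting interval of 1.38 to 55.6. From 24 h to 48 h Wnt3 rose by 3.08 (SE 0.42, limma adjusted p = 1.78e-06), and at 120 h it stood 5.77 above 0 h (SE 0.42, adjusted p = 5.63e-12).

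Wnt8a, another ligand of the posterior embryo, was at -2.39 and -2.13 at 0 h and still at 0.35 and 0.07 at 48 h. It was at 3.49 and 3.06 at 72 h and at 2.79 and 2.79 at 120 h. Its rise from 48 h to 72 h was 3.07 (SE 0.31, adjusted p = 2.31e-08), and the difference between 120 h and 0 h was 5.05 (SE 0.31, adjusted p = 1.6e-13). Wnt4 passed in 3 of the 7 intervals, of which those from 48 h to 72 h and from 72 h to 96 h adjoin. It went from -0.01 and -0.46 at 0 h to 1.31 and 1.59 at 6 h, was at 0.60 and 0.72 at 48 h, then at 2.53 and 2.68 at 72 h and at 5.12 and 5.31 at 120 h. The step to 6 h was 1.69 (SE 0.28, adjusted p = 1.05e-05), that from 48 h to 72 h was 1.94 (SE 0.28, adjusted p = 4.37e-06), and that from 72 h to 96 h was 2.42 (SE 0.28, adjusted p = 4.14e-07). At 96 h Wnt4 was at 4.24 in A and 5.80 in B.

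Wnt5a, Wnt6 and Wnt7b were high early, low in the middle of the course and high again late. Wnt5a, known mainly for signalling that does not pass through β-catenin, was at -0.28 and -1.07 at 0 h, 2.38 and 2.58 at 6 h, -1.07 and -0.34 at 72 h, and 2.47 and 2.51 at 120 h. Its level at 6 h was 3.15 above 0 h (SE 0.43, adjusted p = 5.8e-07). Wnt7b was at -0.20 and 0.52 at 0 h, 2.97 and 2.73 at 6 h, -1.93 and -1.57 at 48 h, and 2.44 and 2.92 at 120 h. It rose by 2.69 to 6 h (SE 0.32, adjusted p = 7.73e-08), was 2.73 lower at 24 h than at 6 h (adjusted p = 1.43e-07), and was 2.52 higher at 120 h than at 0 h (adjusted p = 2.13e-07). Wnt6 was at 2.46 and 2.52 at 0 h, 4.26 and 4.50 at 6 h, -1.93 and -0.61 at 48 h, and 2.60 and 2.72 at 120 h. Its ends differed by 0.17 (SE 0.59, adjusted p = 0.828), although its range between 6 h and 60 h was 6.29 log2 units. Wnt5b was at -0.61 and -1.5 at 0 h, 0.18 and 0.49 at 48 h, 1.08 and 1.40 at 72 h, and 1.06 and 1.03 at 120 h. With 15 and 8 reads at 0 h, it was 2.10 higher at 120 h (SE 0.34, adjusted p = 7.14e-06) and passed in none of the 7 intervals.

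The 2 genes of ligand processing went opposite ways. Wls, the carrier of Wnt proteins to the cell surface (chromosome 3, 159839672 to 159938664), was at 2.26 and 2.58 at 0 h, 1.09 and 0.73 at 6 h, 3.01 and 3.07 at 48 h, 5.49 and 5.71 at 72 h, and 7.48 and 7.30 at 120 h. After a fall of 1.51 to 6 h (SE 0.17, adjusted p = 3.55e-08) it passed the threshold as higher in each day from 24 h to 96 h, and ended 4.97 above 0 h (SE 0.17, adjusted p = 8.66e-19). Porcn (chromosome X, 8193848 to 8206525) was at 4.99 and 5.09 at 0 h, 4.79 and 4.94 at 24 h, 2.57 and 2.19 at 48 h, and 3.73 and 3.92 at 120 h. It fell by 2.48 between 24 h and 48 h (SE 0.20, adjusted p = 1.53e-10) and had regained part of that level at the end, where it stood 1.21 below 0 h (SE 0.20), for an adjusted p of 8.81e-06. Porcn also dipped at 108 h, to 2.39 and 2.71, which was 1.27 below 120 h (SE 0.20, adjusted p = 2.58e-05).

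**Figure D3:**
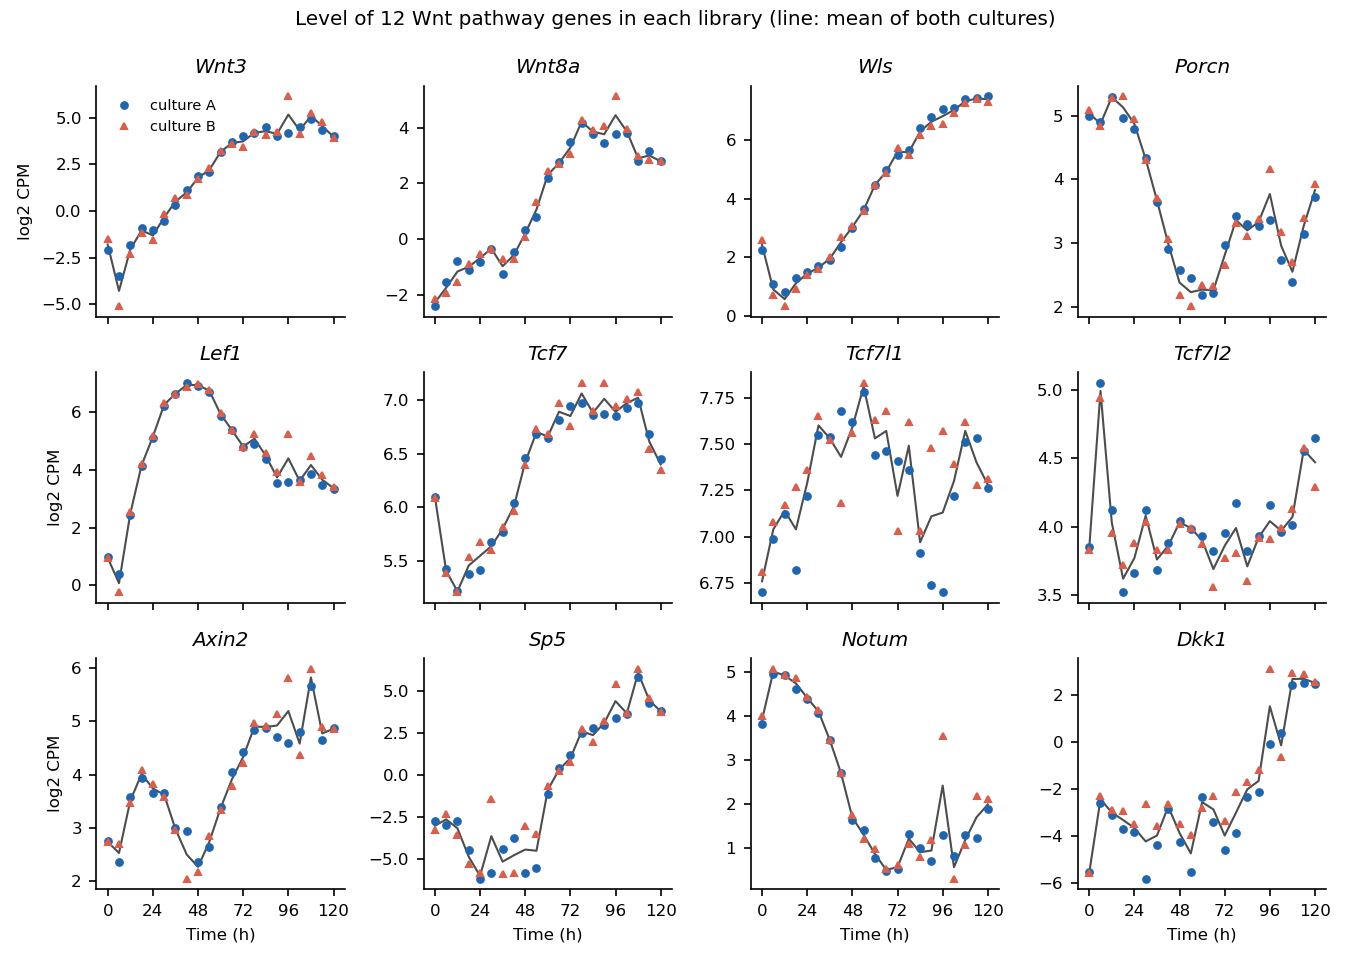
Level in log2 CPM (vertical axes, each with its own scale) against time in h for 12 Wnt pathway genes, with a circle for replicate A, a triangle for replicate B and a line through their mean. Lef1 rises from 0.08 at 6 h to 6.94 at 48 h while Porcn and Notum fall, Wnt8a and Wls rise after 48 h, and at 96 h the triangle of Dkk1, 3.09, lies far above its circle, -0.09.

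Of the 11 Frizzled and Lrp receptors, 5 were higher and 1 lower at 120 h than at 0 h. Fzd2 was at 2.28 and 2.36 at 0 h, 4.60 and 4.57 at 48 h, and 6.32 and 6.29 at 120 h, a difference over the course of 3.99 (SE 0.23, adjusted p = 2.82e-14). Fzd8 was at -0.61 and -0.23 at 0 h, 2.73 and 2.59 at 48 h, and 2.96 and 3.12 at 120 h, a difference of 3.46 (SE 0.21, adjusted p = 1.14e-13). Fzd1 was at -0.65 and -1.01 at 6 h, 0.46 and 0.37 at 48 h, and 1.93 and 1.72 at 72 h. With 1 and 3 reads at 0 h and 102 and 61 reads at 120 h, it was 37.5 times higher per counted library at the end, with a 95% counting interval of 14.4 to 139. For Fzd8 most of the rise on the log2 scale was present by 48 h, while Fzd2 went on to 6.78 and 6.88 at 108 h. Fzd5 went the other way, from 7.03 and 7.06 at 0 h to 5.73 and 5.54 at 48 h and 5.58 and 5.62 at 120 h, and was 0.94 lower at 48 h than at 24 h (adjusted p = 8.89e-06).

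Fzd7 was the receptor with the highest level per kilobase of exon, a mean of 4.98 log2 CPM per kb over the course, and it passed the threshold in the most intervals. It was at 6.28 and 6.25 at 0 h, 5.56 and 5.53 at 6 h, 7.08 and 7.0 at 24 h, 8.0 and 7.98 at 48 h, 7.52 and 7.29 at 72 h, and 6.99 and 7.0 at 120 h. It dropped by 0.72 to 6 h (adjusted p = 8.68e-07), rose by 1.5 from 6 h to 24 h (SE 0.10, adjusted p = 3.35e-12) and by a further 0.95 to 48 h (adjusted p = 2.83e-08). It was lower at 72 h and 102 h, at 7.13 and 6.99 at the latter, stood at 7.47 and 7.70 at 108 h, and then fell by 0.59 to 120 h (SE 0.10, adjusted p = 9.06e-05). Fzd6 had a short high point at 108 h, with 4.30 and 4.18 at 96 h, 5.44 and 5.32 at 108 h, and 4.15 and 4.37 at 120 h. Both flanks of that point passed, with 1.14 (SE 0.12, adjusted p = 3.26e-08) up and a drop of 1.13 (SE 0.12) with an adjusted p of 9.01e-08. The co-receptor Lrp5 fell at 6 h, from 6.86 and 6.79 to 5.55 and 5.30, a fall of 1.40 (SE 0.16, adjusted p = 4.64e-08). At 120 h it was at 6.89 and 6.87, a difference of 0.06 from 0 h (SE 0.16, adjusted p = 0.79). Lrp6, the other co-receptor, had 6.06 and 5.93 at 0 h and 6.37 and 6.36 at 120 h. Fzd3, Fzd4 and Fzd10 did not pass between the ends of the course, and of these Fzd10 had its lowest mean, 2.04, at 48 h and its highest, 5.78, at 108 h, with 3.55 and 3.96 at 0 h and 4.70 and 4.58 at 120 h.

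In the R-spondin branch, the ligand Rspo3 rose late. R-spondins bind Lgr4 and keep the ubiquitin ligases Znrf3 and Rnf43 from removing Frizzled receptors. Rspo3 (chromosome 10, 29452416 to 29535867) had 1 and 2 reads at 0 h and was at -0.89 and -0.61 log2 CPM at 48 h, 2.32 and 2.67 at 72 h, and 2.36 and 2.40 at 120 h. The rise from 48 h to 72 h was 3.24 (SE 0.41, adjusted p = 6.54e-07), and against 0 h the end of the course was 82.3 times higher by reads, with a 95% counting interval of 27.8 to 401. Its receptor Lgr4 peaked earlier, with 5.66 and 5.77 at 0 h, 7.73 and 7.69 at 48 h, 7.79 and 7.68 at 60 h, and 6.26 and 6.18 at 120 h. Lgr4 was 1.46 higher at 24 h than at 6 h (SE 0.12, adjusted p = 1.5e-10). Its ends differed by 0.50 (SE 0.12) with an adjusted p of 0.000758, which missed the threshold. Rnf43 was at 0.32 and 0.43 at 0 h, -1.03 and -2.73 at 36 h, 3.40 and 3.34 at 84 h, and 2.62 and 2.78 at 120 h. Over the course it rose by 2.32 (SE 0.43, adjusted p = 4.51e-05), while Znrf3 rose within the first 6 h, from 3.30 and 3.45 to 4.38 and 4.29 (difference 0.96, SE 0.16, adjusted p = 1.07e-05).

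The cytoplasmic components moved little. Of these 7 genes, 1 passed between 0 h and 6 h, Dvl1, which was at 5.76 and 5.69 and then at 4.81 and 4.86 (a fall of 0.89, SE 0.14, adjusted p = 3.27e-06), and 0 passed in the 6 later intervals. Of all genes, 26.3% were called between 0 h and 6 h, and from 3.39% to 11.4% in each of the 6 later intervals. In those 6 intervals limma gave an unadjusted p under 0.05 in 14 of the 42 tests of these genes, and voom weights called 0. The share of all genes at that unadjusted rule was not computed, so 14 of 42 cannot be called many or few. Their ranges over the course were 0.69 for Dvl2, 0.74 for Axin1, 0.84 for Apc, 0.89 for Dvl1, 1.02 for Ctnnb1, 1.06 for Gsk3b and 1.40 for Dvl3. The median range over all genes was 1.5, and 24.8% of all genes had a range under 1. Ctnnb1 was at 9.26 and 9.30 at 0 h and at 10.01 and 9.84 at 120 h, 0.64 higher (SE 0.11, adjusted p = 2.95e-05). Per kilobase of exon it had the highest mean level of the 48 genes, 7.42 log2 CPM per kb, followed by Tcf7l1 with 5.35. Gsk3b was at 5.81 and 5.56 at 0 h and at 6.62 and 6.43 at 120 h, 0.85 higher (SE 0.16, adjusted p = 4.61e-05).

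The TCF/LEF factors followed different courses. Lef1 (chromosome 3, 131110471 to 131224356) was at 0.98 and 0.95 at 0 h, 0.41 and -0.24 at 6 h, 2.44 and 2.55 at 12 h, 5.11 and 5.19 at 24 h, and 6.90 and 6.98 at 48 h. It then went down, to 4.81 and 4.81 at 72 h and 3.33 and 3.41 at 120 h. The rise from 6 h to 24 h was 5.07 (SE 0.28, adjusted p = 1.04e-13), and a further 1.79 followed to 48 h (SE 0.28, adjusted p = 1.48e-05). From 48 h to 72 h it fell by 2.13 (SE 0.28, adjusted p = 1.5e-06), and at 120 h it was still 2.41 above 0 h (SE 0.28, adjusted p = 4.99e-08). Tcf7 dipped and then rose, with 6.10 and 6.09 at 0 h, 5.43 and 5.39 at 6 h, 6.46 and 6.39 at 48 h, 6.97 and 7.07 at 108 h, and 6.45 and 6.35 at 120 h. Its steps at 6 h, 48 h and 120 h all passed, and the last was a fall of 0.62 from 108 h (SE 0.10, adjusted p = 3.25e-05).

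Tcf7l2 had an early pulse. It was at 3.85 and 3.83 at 0 h, 5.05 and 4.94 at 6 h, 4.12 and 3.95 at 12 h, and 3.66 and 3.88 at 24 h. The rise was 1.15 (SE 0.13, adjusted p = 3.76e-08) and the fall from 6 h to 24 h was 1.22 (SE 0.13, adjusted p = 2.96e-08). Late in the course it was at 4.01 and 4.13 at 108 h, 4.55 and 4.57 at 114 h, and 4.65 and 4.29 at 120 h, which was 0.63 above 0 h and did not pass (SE 0.13, adjusted p = 0.000241). Tcf7l1, which represses pluripotency genes in stem cells, ranged over 1.05 log2 units. It was at 6.70 and 6.81 at 0 h, 7.62 and 7.56 at 48 h, and 7.26 and 7.31 at 120 h, and did not pass in the F test. The markers of the epiblast (5 genes) summed to 133 and 127 CPM at 0 h, 2040 and 1950 CPM at 48 h, and 405 and 363 CPM at 120 h, a sum carried mostly by Dnmt3b, which was at 10.61 and 10.51 log2 CPM at 48 h and at 7.54 and 7.39 at 120 h. From 48 h to 72 h, Pou3f1 fell by 1.40 and Dnmt3b by 0.95, and both were called lower. Sox3 (-1.29), Otx2 (-0.62) and Fgf5 (-0.30) did not pass in that interval. Fgf5 had means of 6.57 at 48 h, 8.08 at 108 h and 6.33 at 120 h. The part of these cells in the course of Lef1 was not tested.

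Genes known as feedback regulators and targets of the pathway did not move as one. Axin2, a negative regulator that is widely used as a readout of β-catenin activity (chromosome 11, 108920349 to 108950783), had 2 high phases. It was at 2.75 and 2.73 at 0 h, 3.66 and 3.82 at 24 h, 2.36 and 2.18 at 48 h, 4.43 and 4.22 at 72 h, 5.66 and 5.98 at 108 h, and 4.87 and 4.85 at 120 h. It was 2.06 higher at 72 h than at 48 h (SE 0.25, adjusted p = 4.97e-07). From 24 h to 48 h it fell by 1.47 (SE 0.25), with a limma adjusted p of 5.14e-05. That fall missed the threshold with voom weights and in a fit without the trend. The lowest mean of Axin2, at 48 h, fell where Lef1 had a mean of 6.94, its highest, which it also had at 42 h. Over the whole course the means of Axin2 and Lef1 had a Pearson correlation of -0.15.

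Sp5 and Sp8, transcription factors of the Sp family, were nearly silent at the start and rose at different times. Sp5 (chromosome 2, 70474923 to 70477729) had 3 and 2 reads at 0 h and none in either library at 24 h. It was at -1.12 and -0.65 log2 CPM at 60 h, 1.21 and 0.81 at 72 h, 5.86 and 6.34 at 108 h, and 3.85 and 3.76 at 120 h. From 0 and 3 reads at 48 h to 84 and 45 reads at 72 h the ratio was 39.1, with a 95% counting interval of 13.1 to 192. Sp8 (chromosome 12, 118846329 to 118852576) had 2 and 2 reads at 0 h, was already at -0.81 and 0.05 log2 CPM at 24 h and 1.43 and 1.83 at 48 h, and reached 3.54 and 3.41 at 120 h. Its reads at 120 h were 133 times those at 0 h per counted library, with a 95% counting interval of 51.6 to 489. Both counting intervals leave out the variation between cultures.

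The promoters of these genes were searched for the core of the TCF/LEF site, spelled CTTTGAT or CTTTGAA, on both strands of the 250 bases before the start site in RefSeq (GRCm38.p6). Promoters were at hand for 31 of the 48 genes, 44 promoters in all. A match was found in 4 of the 44, 9.09%, against 7.48% of 32851 mouse promoters, so the share was close to that of promoters in general. The 4 genes were Sp5, Sp8, Wnt5b and Dkk1. The windows of Sp5 (chr2:70474673-70474922, + strand), Sp8 (chr12:118846983-118847232, + strand) and Wnt5b (chr6:119449387-119449636, - strand) are shown because 2 of these genes were among the largest rises, with the matched letters in capitals and each read 5′ to 3′ along its gene.
Sp5: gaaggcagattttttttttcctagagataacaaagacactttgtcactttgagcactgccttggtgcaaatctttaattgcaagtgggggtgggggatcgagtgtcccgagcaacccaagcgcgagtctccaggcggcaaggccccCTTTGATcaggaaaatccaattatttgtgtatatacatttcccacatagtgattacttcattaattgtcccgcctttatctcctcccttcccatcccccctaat
Sp8: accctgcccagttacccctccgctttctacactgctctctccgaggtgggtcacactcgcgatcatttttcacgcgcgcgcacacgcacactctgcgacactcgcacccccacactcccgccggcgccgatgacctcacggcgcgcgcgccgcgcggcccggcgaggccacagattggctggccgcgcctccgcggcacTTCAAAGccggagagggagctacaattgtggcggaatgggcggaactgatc
Wnt5b: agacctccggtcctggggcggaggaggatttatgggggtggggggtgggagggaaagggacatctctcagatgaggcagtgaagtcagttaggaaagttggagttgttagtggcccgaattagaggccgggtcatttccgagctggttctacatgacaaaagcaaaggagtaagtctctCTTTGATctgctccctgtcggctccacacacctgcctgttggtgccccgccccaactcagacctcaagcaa
The match in Sp5 began at position -104 from the start site, that in Wnt5b at -71, that in Sp8, which reads CTTTGAA on the other strand, at -51, and that in Dkk1, not printed, at -117. The windows of Sp8 and Wnt5b lie in introns of longer transcripts in the annotation. A match of letters is a description of the sequence and does not show that a factor binds there. Of the genes with a promoter at hand, Axin2, Lef1, Nkd1 and Rnf43 held no match in this window.

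The remaining feedback genes differed in their timing. Notum, an enzyme that strips the lipid from Wnt proteins, was at 3.82 and 4.01 at 0 h, 4.96 and 5.08 at 6 h, 4.39 and 4.44 at 24 h, 1.63 and 1.76 at 48 h, and 0.52 and 0.61 at 72 h. It was 2.72 lower at 48 h than at 24 h (SE 0.38), with an adjusted p of 2.03e-06, and at 120 h it was at 1.88 and 2.11, which narrowly missed the threshold against 0 h (difference -1.92, SE 0.38, adjusted p = 0.000101). Nkd1 and Nkd2, which bind Dishevelled, both fell in the first 6 h. Nkd1 went from 0.88 and 0.95 to -0.93 and -0.05, by 1.40, and Nkd2 from 2.31 and 2.27 to 0.85 and 0.68, by 1.53. Both were higher at 48 h than at 24 h, by 1.5 and by 1.91. The fall of Nkd1, from 43 and 46 reads to 14 and 16, missed the threshold with voom weights and with adjustment over all 8 contrasts. Its rise to 48 h missed the threshold with voom weights and with median-of-ratios scaling. Nkd1 went on to 3.17 and 3.23 at 84 h and ended 1.80 above 0 h (SE 0.27, adjusted p = 2.98e-06). Nkd2 was at 3.31 and 3.17 at 60 h and ended at 1.99 and 2.48, a difference of -0.06 from 0 h (SE 0.19, adjusted p = 0.817).

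Ccn4, a secreted matrix protein, and Cited1, a transcriptional co-regulator, both rose in the first 6 h and again late. Cited1 was at -2.10 and -2.13 at 0 h, 1.01 and 1.5 at 6 h, -1.21 and -0.87 at 24 h, -2.14 and -2.36 at 48 h, and 3.33 and 3.59 at 120 h. It rose by 3.37 to 6 h (SE 0.34, adjusted p = 4.43e-09), fell by 2.30 to 24 h (SE 0.34, adjusted p = 5.16e-06), and ended 5.58 above 0 h (SE 0.34, adjusted p = 1.44e-13). Ccn4 had 0 and 1 reads at 0 h, 30 and 13 at 6 h, and 310 and 237 at 120 h. The ratio at 6 h was 45.9, with a 95% counting interval of 7.81 to 1855. Ccn4 was at 0.15 and -0.34 log2 CPM at 6 h, -0.44 and -0.54 at 24 h, and -0.26 and -0.16 at 30 h. At 72 h it was at -1.67 and -2.24, and its mean was highest at 114 h, 3.52.

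The antagonists also split by direction. Frzb and Dkk1, secreted inhibitors of the pathway, had no reads in either library at 0 h. Frzb (chromosome 2, 80411970 to 80447625) was at 0.18 and -0.49 at 72 h, 4.36 and 4.66 at 108 h, and 4.15 and 4.07 at 120 h. With 489 and 407 reads at 120 h it was at least 138-fold higher than at 0 h, taken against a floor of 3 reads per library. Dkk1 (chromosome 19, 30545863 to 30549665) was at -2.61 and -2.29 at 6 h, -4.61 and -3.37 at 72 h, 2.40 and 2.92 at 108 h, and 2.44 and 2.55 at 120 h, at least 44.5-fold higher than at 0 h by the same floor. In both libraries, each was below 1 log2 CPM at 72 h and above 2 at 120 h.

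Sfrp1, which binds Wnt proteins, declined from 7.80 and 7.80 at 0 h to 5.63 and 5.60 at 48 h and 5.95 and 5.80 at 120 h. It was 1.60 lower at 48 h than at 24 h (SE 0.14), with an adjusted p of 9.59e-10. Sfrp2 rose in the same interval by 1.95 (SE 0.16, adjusted p = 2.79e-10), from 2.46 and 2.75 to 4.47 and 4.64, peaked at 5.23 and 5.28 at 60 h, and was at 3.22 and 3.82 at 120 h. Sfrp5 was at 0.91 and 0.95 at 0 h and at -1.88 and -0.74 at 120 h and passed in no test. Over the 21 time point means, the course of Sfrp1 was most like that of Fzd5 among the 48 genes, with a Pearson correlation of 0.981, and that of Rspo3 most like that of Wnt8a, with 0.98. Neighbouring time points share their trend, so these coefficients only describe the likeness of the curves.

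Among markers of other cell types, most but not all were higher at 120 h than at 0 h. Of the 6 fibroblast markers found of 8, 4 were called higher, among them Col1a1, at 2.26 and 2.53 log2 CPM at 0 h and 5.94 and 5.86 at 120 h. Thy1 was called lower, from 4.27 and 4.47 to 1.79 and 1.85, and made up most of the fibroblast sum at 0 h, which was 24.3 and 28.1 CPM, against 102 and 91.7 CPM at 120 h. At 0 h Col1a2, Col3a1, Postn and Dcn were between -5.59 and -3.24 log2 CPM. Of the 5 trophoblast markers 4 were called higher and Ascl2 lower, and their sum went from 23.3 and 22.6 CPM to 135 and 147 CPM. Of the 7 of extraembryonic endoderm 4 were called higher, while Sox7 went from 1.56 and 1.37 log2 CPM to 0.52 and 0.81 and Amn from -1.17 and 0.75 to -1.88 and -0.95 without passing, and the sum went from 7.64 and 9.73 to 45.4 and 47.3 CPM. The part of these cell types in the rise of Frzb, Dkk1, Ccn4 and the other late genes was not tested.

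At 96 h the duplicates stood apart for many of the Wnt pathway genes. The difference between replicates A and B had a median size of 0.68 log2 units over the 48 genes and of 0.41 over all genes, while at 90 h these were 0.21 and 0.20. It was over 2-fold for 15 of the 48, and for 14 of them replicate B was the higher, whereas among all genes 5.42% were over 2-fold higher in B and 8.12% in A. Dkk1 was at -0.09 in A and 3.09 in B, Wnt5a at 0.98 and 3.27, Wnt6 at 2.36 and 4.65, Notum at 1.29 and 3.55, Sp5 at 3.40 and 5.43, and Wnt3 at 4.20 and 6.13. At 102 h Dkk1 was back at 0.35 and -0.67. The exception was Fzd2, which was higher in A, at 6.12 against 5.11.

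Replicate B at 96 h lay above all 4 libraries of 90 h and 102 h for 21 of the 48 genes, against 33.6% of all genes, and below them for 15, against 32.9%. Replicate A did so for 5 and 7, against 17.1% and 19.9%. The markers of the primitive streak found (7 of 10, among them T and Mixl1) summed to 178 CPM in A and 609 CPM in B, with 127 and 191 at 90 h and 210 and 199 at 102 h. The same library had fewer reads of fibroblast markers, 9.27 CPM against 24.2 in A, and more of stem cell markers, 1950 against 1220 CPM. Whether the cells of that culture differed in state or in time was not tested.

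**Figure D4:**
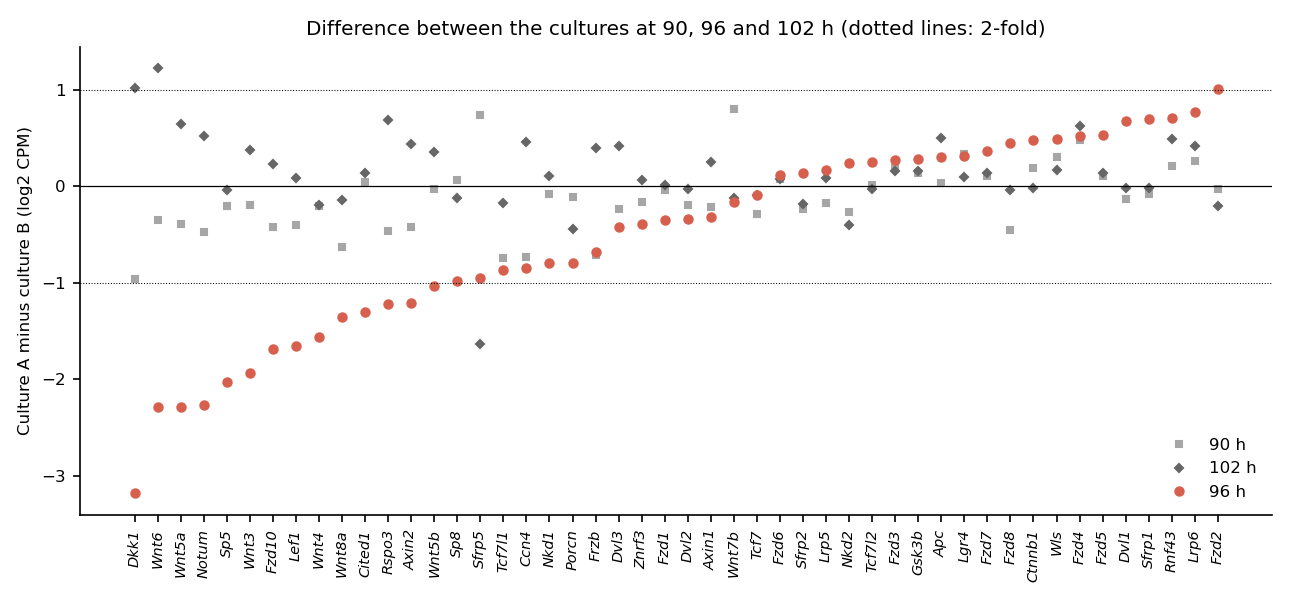
Replicate A minus replicate B in log2 CPM (vertical axis) for each of the 48 Wnt pathway genes (horizontal axis, ordered by the value at 96 h) at 90 h, 96 h and 102 h, with dotted lines at a 2-fold difference. At 96 h, Dkk1, Wnt6, Wnt5a and Notum lie furthest below 0, from -3.18 to -2.26, and Fzd2 is the highest, with 6.12 in A and 5.11 in B.

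The calls between 72 h and 96 h depend on that library. With both libraries, Dkk1 passed (adjusted p = 4.34e-05) with 1 and 2 reads at 72 h and 32 and 224 reads at 96 h, a ratio of 87.4 with a 95% counting interval of 29.6 to 427. Wnt6 rose by 4.30 (SE 0.59, adjusted p = 5.77e-06), Cited1 by 3.74 (SE 0.34, adjusted p = 9.32e-09) and Wnt5a by 2.83 (SE 0.43, adjusted p = 2.13e-05). Without replicate B of 96 h, 3 of the 9 genes passed, Wnt4, Wls and Cited1. In that fit the difference was 3.15 for Wnt6 and 1.69 for Wnt5a, and neither these nor Dkk1 passed. Without replicate A of 72 h, 4 genes passed in all, and without its replicate B, 2 did. With 102 h in place of 96 h, 6 genes were higher than at 72 h and 1 lower, against 7.23% of all genes called, among them Wnt4 (1.98, SE 0.28, adjusted p = 3.68e-06), Wnt7b (2.66, SE 0.32, adjusted p = 3.95e-07) and Cited1 (4.04, SE 0.34, adjusted p = 7.83e-10). Lgr4 was the one that was lower. With 90 h, where 1.46% of all genes were called, Cited1 alone passed, 2.20 above 72 h (SE 0.34, adjusted p = 6.13e-05). The rise of Cited1 after 72 h was thus present with any of the 3 time points.

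At 108 h a group of the genes stood above both neighbours in both replicates. The libraries of 108 h lay above all 4 of 102 h and 114 h for 14 of the 48 genes, 15.1% of all genes doing so, and below them for 3, against 15.9%. The 14 were Wnt3, Fzd2, Fzd6, Fzd7, Fzd10, Lrp6, Lgr4, Znrf3, Axin1, Gsk3b, Lef1, Axin2, Sp5 and Sp8, and the 3 below were Porcn, Rnf43 and Dvl2. Of these, Fzd6 alone passed the threshold against 102 h, by 0.74 (SE 0.12, adjusted p = 6.23e-05), where 2.04% of all genes were called. Against 90 h, with 6.91% of all genes called, Wnt5a, Wnt7b, Fzd6, Fzd10 and Cited1 were higher at 108 h and Sfrp2 was lower. Of the 4 markers of neuroectoderm, Nes was higher at 108 h than at 120 h, at 8.29 and 8.14 against 7.26 and 7.08, while Sox1, Pax6 and Zic1 were lower at 108 h in both replicates, with Sox1 at 5.38 and 5.45 against 5.51 and 5.62. Their part was not tested.

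At 6 h, both libraries lay above all 4 of 0 h and 12 h for 20 of the 48 genes, against 19.1% of all genes, and below them for 10, against 18.5%. Those above included Wnt4, Wnt5a, Wnt6, Wnt7b, Fzd1, Fzd8, Fzd10, Znrf3, Tcf7l2, Notum and Ccn4, and those below included Wnt3, Fzd7, Lrp5, Lef1 and Axin2. The number below was near the share of all genes. Of the genes named here, Wnt6 (difference 1.89, adjusted p = 0.00776), Lef1 (-0.88, adjusted p = 0.00945) and Axin2 (-0.21, adjusted p = 0.508) did not pass at 6 h against 0 h, nor did Fzd10 and Notum. Markers of other cell types moved at the same step, in which 11.8% of all genes were called higher. Called higher were 3 of 4 of neuroectoderm (Pax6, Nes and Zic1), 2 of 7 of the primitive streak (Evx1 and Cdx2) and 1 of 5 of trophoblast (Gata3). Zic1 went from no reads to -1.39 and -3.51 log2 CPM and so rests on few reads. Pax6 went from -3.24 and -4.01, also few reads, to 0.52 and 0.52. Nes was 2.16 higher (SE 0.17, adjusted p = 4.03e-11), and Evx1 went from 0 and 3 reads to 104 and 58 reads. Fgf5, Fgf8, Klf4 and Col1a1 were called lower, and the part of these markers in the values at 6 h was not tested.

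A further list of pathway genes was read beside the 48, of which 60 of 70 were measured. At 120 h against 0 h, 15 were higher and 5 lower, 33.3% of the 60 against 23.0% of all genes. Cxxc4, an inhibitor of Dishevelled, passed (adjusted p = 7.95e-15) with 1 read in each library at 0 h and 126 and 104 at 120 h, a ratio of 106 with a 95% counting interval of 29.0 to 880. Shisa3, of the Shisa family of Wnt antagonists, was 4.27 higher (SE 0.29, adjusted p = 9.1e-13), and the receptor Ror1 4.18 higher (SE 0.25, adjusted p = 7.51e-14). The co-repressor Tle2 fell by 2.53 (SE 0.40, adjusted p = 6.26e-06) and the inhibitor Sfrp4 fell by 1.94 (SE 0.19, adjusted p = 1.89e-09). From 48 h to 72 h, the interval in which Wnt8a, Rspo3, Sp5 and Axin2 rose, the ligand Wnt9a was 2.52 higher (SE 0.27, adjusted p = 5.07e-08). Wnt11 also passed (adjusted p = 3.85e-07), from 1 and 2 reads to 58 and 42 reads, a ratio of 30.3 with a 95% counting interval of 10.1 to 149. Between 0 h and 6 h, 7 of the 60 were higher and 13 lower, 33.3% against 26.3% of all genes.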

How the data were processed

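Poly-A RNA was sequenced with a stranded kit in 42 libraries, whose time point and replicate were taken from the labels. Reads were trimmed (Trim Galore), aligned to mm10 (TopHat2), counted per gene (HTSeq) and scaled to library size (edgeR) by the authors. The strand setting of the counting was not given in the sources used here. The values deposited by the authors are log2 CPM from voom, for genes that passed a minimum level. Each value came back to a whole number of reads with an error of at most 2.91e-08, and depths were taken from these. The identifiers of 14177 of the 14296 genes were found in GENCODE vM21 (GRCm38), which gave symbols, positions and exon lengths, while the authors counted on an older release.

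Tests used limma 3.58.1 in R 4.3.3 (lmFit, eBayes with a trend) on the deposited log2 values of all genes, as a factor of 21 time points over all 42 libraries, with 21 residual degrees of freedom. Benjamini-Hochberg adjustment ran over all genes of a contrast, and genes were called at 0.0001, the threshold of the study. The p-values rest on the spread between the 2 cultures pooled over all 21 time points and moderated by eBayes. They do not rest on the spread at the time points compared alone. At 96 h the duplicates of Dkk1 had an SD of 2.25 against 0.89 pooled, and those of Wnt3 1.36 against 0.46. For such genes the p-values of contrasts with 96 h do not reflect the wider spread there. Ratios to groups with 1 to 3 reads per library carry exact 95% binomial intervals on summed reads, which cover counting error only. The fit was tested on simulated data. All of the 48 genes are accounted for, and values are given at several time points for those with the 15 largest ranges and, at the time points compared, for most of those called in a contrast. The genes and lists, and the markers of cell types, were chosen with earlier results of these data known. Alternatives were a replicate block, voom weights, median-of-ratios scaling, a filter on the mean, adjustment over all 8 contrasts, a threshold of 0.05, a fit without the trend and leaving out each library. Neighbouring time points in place of 96 h were added after seeing the data. Python 3.11.15 with pandas 2.3.3 and matplotlib 3.10.9 made the summaries and figures.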

Additional observations from a re-analysis of the deposited data

How the results depend on the processing

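No direction reversed among the 98 calls on single genes under any alternative. With the replicate block all 98 held, and the counts of genes called were 18, 8, 21, 8, 12, 3, 4 and 32 for the 7 intervals in order and the whole course, with 44 in the F test. The replicate letters were not taken to pair the libraries. Deviations of libraries with the same letter correlated by a mean of 0.08 over 210 pairs of time points. The correlation was above 0 in 68.6% of the pairs and above 0.1 in 47.1%. A shared deviation by letter can therefore not be set aside, and the replicate block allows for a constant shift between the letters. Voom weights lost 25 of the 98 calls, median-of-ratios scaling 1, adjustment over all 8 contrasts 2 and a fit without the trend 4, and the cause was not tested. With voom weights 10 genes passed at 6 h against 0 h and 9 at 108 h against 96 h. The share of all genes called also shifts with the fit and is not given for the block and the voom weights. These counts therefore describe the fits and are not a result about the Wnt pathway genes.

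At a threshold of 0.05 the counts in the 7 intervals were 32, 25, 31, 24, 25, 19 and 15 of the 48. The shares of all genes were then 58.0%, 38.4%, 29.9%, 40.9%, 28.9%, 34.3% and 26.9%. With 90 h in place of 96 h, 1 gene passed against 72 h and 6 at 108 h, and with 102 h 1 passed at 108 h. Leaving out a library leaves a lone sample that is assumed to vary like the others. The counts then ranged from 10 to 11 for 48 h against 24 h, from 5 to 7 for 72 h against 48 h, from 2 (without 72 h replicate B) to 13 (without 96 h replicate A) for 96 h against 72 h, from 1 to 8 (without 96 h replicate A) for 108 h against 96 h, and were 1 for 120 h against 108 h. Sp5 from 48 h to 72 h missed the threshold without either library of 72 h or replicate A of 48 h, with differences from 4.02 to 5.63. Genes under about 3 reads in a library cannot be ranked at this depth.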
